A study of Arabidopsis thaliana with 6 samples.

Results

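The genes described here are 64 Arabidopsis genes that carry no symbol beyond a locus tag and whose transcripts were at least 4-fold more abundant in treated than in untreated rosettes of the catalase mutant cat2-2. A locus tag is the systematic name of a gene: AT for the species, the chromosome, G for gene, and a number that runs along the chromosome. Of 13350 genes named alone by a probe set in the platform's gene table, 11798 (88.4%) had only such a tag. That table left 8730 of 22746 probe sets unlisted, so shares of all genes below cover the listed genes only. A member had a treated mean at least 2 above the untreated mean on the log2 scale, with all 3 treated arrays above all 3 untreated arrays, on the probe set with the highest mean level of that gene. This was met by 71 locus-tag genes, of which 7 were left out by the selection, so that the 64 are 0.542% of locus-tag genes and 0.479% of all genes. The members were selected on these measured differences, so their differences are given below as a description, with no test.

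Treated plants were 22 days old and were harvested 24 h after the surgical tape around their plates had been replaced by parafilm, which restricts gas exchange, with light left on throughout at 100 μmol per square metre and second. Untreated plants were 21 days old and were harvested at 0 h, having grown with 16 h of light a day. There were 3 biological replicates per group on Affymetrix ATH1 arrays, each pooling at least 15 rosettes. All plants carried the cat2-2 mutation in the Col-0 background and grew on medium with 1% sucrose, and no wild type enters the comparison. Sealing, continuous light and a further day of age came together and cannot be told apart. Values are RMA levels on the log2 scale, and a fold is 2 to the power of the difference between group means.

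CAT2 encodes the main catalase of leaves, which breaks down the hydrogen peroxide that peroxisomes release during photorespiration. Photorespiration starts when Rubisco fixes oxygen in place of carbon dioxide. Hydrogen peroxide, faults of the mitochondrial electron chain and shortage of oxygen each raise sets of plant transcripts that partly overlap, and many genes in these sets are known only by locus tag. RefSeq (assembly TAIR10.1) lists all 64 members as protein-coding. A descriptive name among the synonyms was given for 1 of them (1.56%, against 143, or 1.21%, of all locus-tag genes), names of sequenced clones alone for 52 and no synonym for 11. For this reason the members are called by their tags below, and no role is given to those without a name.

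The member differences ran between 2.00 and 3.80 (log2), with a median of 2.42, or 5.36-fold. At least 8-fold higher levels were seen in 12 members, a difference between 2.5 and 3 in 18, and one between 2 and 2.5 in 34. Across all locus-tag genes the median difference was -0.01, 0.602% met the size and separation of the rule, and 21.3% had all treated arrays above all untreated arrays. The gap between the lowest treated and the highest untreated array had a median of 2.09 over the members. It was at least 1 in 62 of the 64, and AT4G29780 (0.79) and AT2G27080 (0.95) were the 2 with less. In whole rosettes, more transcript per cell and more cells that hold the transcript cannot be told apart.

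**Figure D1:**
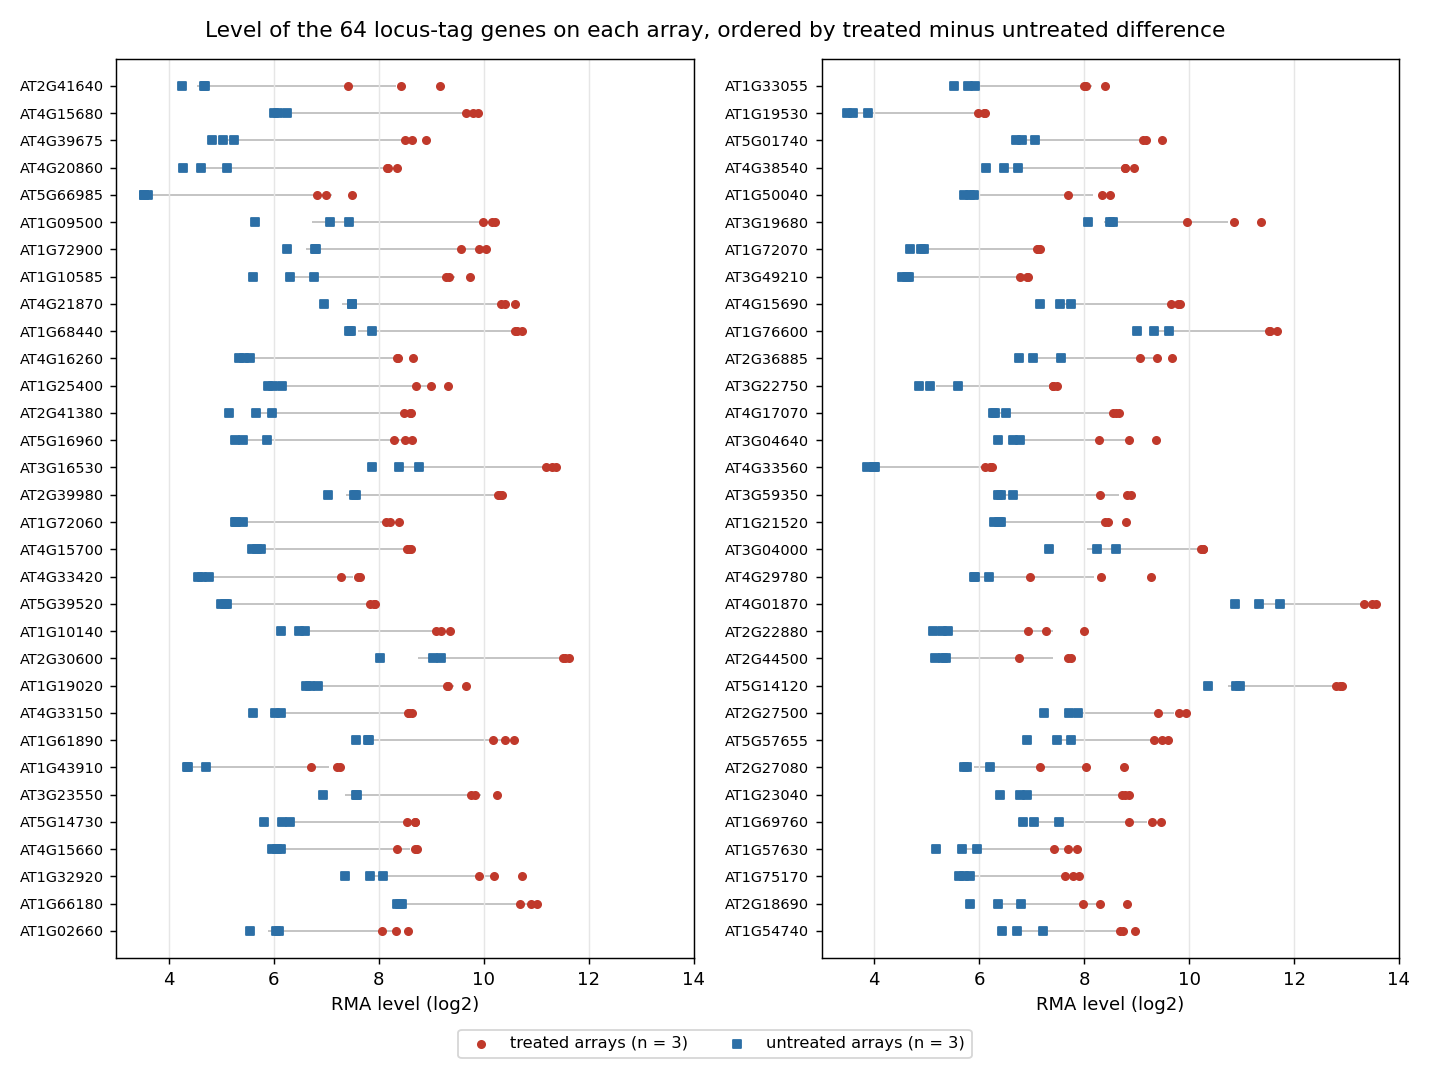
Level of each member (RMA, log2, horizontal axis) on the 3 treated arrays (red circles) and the 3 untreated arrays (blue squares), with a grey line joining the group means and genes ordered by the size of their difference. The red points lie to the right of the blue ones in every row, closely spaced in most, and spread widely in AT2G41640, AT4G29780 and AT2G27080.

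Among all locus-tag genes the largest difference was log2 4.71, in a gene left out by the selection. Over all 6 arrays the largest difference among the members belonged to AT2G41640. It had 9.16, 8.42 and 7.42 on the treated arrays, against 4.68, 4.25 and 4.66 on the untreated arrays. That is 13.9-fold higher (log2 3.80), with treated arrays that themselves spanned 1.74. Without treated replicate 3 the fold was 19.1, and without treated replicate 1 it was 10.5. Without treated replicate 1 its log2 difference of 3.39 was below those of AT4G15680 (3.67), AT5G66985 (3.60), AT4G39675 (3.53) and AT4G20860 (3.51).

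AT4G15680 measured 9.80, 9.89 and 9.66 in treated rosettes, against 6.26, 6.08 and 5.99 in untreated rosettes, a 12.8-fold difference with the widest gap of all members, 3.41. AT4G39675 had 8.89, 8.62 and 8.51 in the treated group and 5.24, 4.82 and 5.04 in the untreated group (12.5-fold). AT4G20860 had 8.35, 8.17 and 8.16 in the treated group and 4.61, 4.26 and 5.11 in the untreated group (11.9-fold), with untreated arrays that spanned 0.85.

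AT5G66985 stood at 7.0, 6.82 and 7.48 on treated arrays, against 3.60, 3.52 and 3.52 on untreated arrays (11.7-fold). Its untreated mean lay at the 5.61th percentile of all probe sets, so whether it was above background there was not tested and the size of its fold is uncertain. AT1G09500 had 10.16, 10.21 and 9.99 in treated rosettes, against 7.43, 5.65 and 7.08 in untreated rosettes (10.6-fold), and without untreated replicate 2, its lowest array, the fold was 7.30. Treated arrays of this gene were tight, with an SD of 0.11, while the untreated SD of 0.94 was the widest among all locus-tag genes.

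The other 6 of the 12 largest member differences lay between 8.01-fold and 9.34-fold. AT1G72900 averaged 9.84 ± 0.24 in treated rosettes and 6.62 ± 0.32 in untreated rosettes (SD, n = 3 each), AT1G10585 9.45 ± 0.26 and 6.23 ± 0.58, and AT4G21870 10.44 ± 0.13 and 7.31 ± 0.30 in the same order of groups. AT1G68440 averaged 10.65 ± 0.07 in treated and 7.59 ± 0.24 in untreated rosettes, AT4G16260 8.45 ± 0.17 treated and 5.43 ± 0.10 untreated, and AT1G25400 9.01 ± 0.31 treated and 6.0 ± 0.14 untreated. AT1G10585 had the widest untreated spread of these 6.

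Shortage of oxygen was approached through a list of 43 loci known from plant responses to low oxygen. Of these, 23 were measured by a listed probe set of their own. Here and in the other lists, whether unlisted probe sets cover the remaining loci was not tested. This list, the longest of the 5 used here, held 5 members: AT4G39675 and AT5G66985, already described, and AT1G33055, AT1G19530 and AT4G33560. Members made up 0.479% of all genes. AT1G33055 measured 8.40, 8.00 and 8.04 on treated arrays, against 5.92, 5.51 and 5.78 on untreated arrays (5.32-fold). AT1G19530 measured 6.09, 6.12 and 5.97 on treated arrays, against 3.88, 3.49 and 3.60 on untreated arrays (5.29-fold). AT4G33560 measured 6.21, 6.12 and 6.25 on treated arrays, against 3.86, 3.99 and 4.02 on untreated arrays (4.71-fold). The gap between treated and untreated arrays was 2.09 in AT1G33055, 2.09 in AT1G19530 and 2.10 in AT4G33560, against a median of 2.09 over all members. AT5G66985, AT1G19530 and AT4G33560 were also the 3 members in the dimmest 40% of probe sets by mean over all 6 arrays, so their folds rest on low untreated signals.

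Apart from the 5 members and 2 loci left out by the selection, 16 measured genes remained in the low-oxygen list. Of these 10 rose, 2 fell and 4 did not pass (limma, Benjamini-Hochberg adjusted p under 0.05 over all probe sets), with a median difference of 0.95. In the background, 17.0% of all genes rose and 20.6% fell, with a median of -0.01. The risers included CML38, a calmodulin-like calcium sensor, at 3.17-fold (log2 1.67 ± 0.16 SE; adjusted p = 6.63e-06), and PDC2, a pyruvate decarboxylase of ethanol fermentation, at 2.80-fold (log2 1.49 ± 0.12; adjusted p = 2.02e-06). AT4G24110 rose 3.13-fold and AT3G27220 2.78-fold, short of the size that defines a member. AT1G74940 fell by 0.87 on the log2 scale (adjusted p = 8.09e-05) and AT4G17260 by 0.35 (adjusted p = 0.00468). All 5 lists used here were written with earlier results of these data known, so their counts describe them and lend no independent support.

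A list of 17 loci known to respond when mitochondria are impaired had 11 measured genes, among them the members AT2G41380 and AT5G14730. AT2G41380 measured 8.62, 8.59 and 8.47 in treated rosettes, against 5.97, 5.14 and 5.66 in untreated rosettes (7.83-fold). AT5G14730 measured 8.54, 8.68 and 8.68 in treated rosettes, against 6.15, 5.82 and 6.31 in untreated rosettes (5.82-fold). In both, the treated arrays lay close together and untreated replicate 2 was the lowest array. Of the 7 other genes outside the selection, 5 rose, 2 did not pass and 0 fell, with a median of 0.78, where 17.0% of all genes rose and 20.6% fell. The largest of the 7 differences was that of AT5G43450, 3.39-fold higher (log2 1.76 ± 0.11, limma adjusted p = 1.64e-07). The smallest riser was NDB2, an external NAD(P)H dehydrogenase of mitochondria, at 1.26-fold (limma adjusted p = 0.00502).

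A list of 20 loci that rise under many kinds of oxidative stress had 11 measured genes and 2 members, AT1G19020 and AT1G57630. AT1G19020 measured 9.67, 9.30 and 9.31 in treated rosettes, against 6.83, 6.61 and 6.69 in untreated rosettes (6.57-fold). AT1G57630 measured 7.69, 7.43 and 7.86 in treated rosettes, against 5.67, 5.95 and 5.18 in untreated rosettes (4.17-fold), with wider spread on both sides and a gap of 1.48. All 5 other genes outside the selection rose (limma, adjusted p between 1.3e-07 and 5.28e-07), against 17.0% of all genes, with a median of 1.85 over the 5. They were STZ, a zinc-finger repressor of stress responses, at 6.04-fold, AT5G48570 at 3.88-fold, AT1G05575 at 3.62-fold, AT1G05340 at 3.45-fold and AT2G41730 at 2.75-fold, the last of which also stands in the mitochondrial list.

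The lists of heat shock proteins and chaperones (12 measured) and of carbon starvation and amino acid breakdown (10 measured) held 0 members. With members at 0.479% of all genes, a count of 0 in lists this short says little. The background for both lists was 17.0% of all genes higher and 20.6% lower. In the first, 3 genes were among those left out by the selection, and of the other 9, 4 rose, 1 fell and 4 did not pass (limma, adjusted p under 0.05). In the second all 10 genes rose, between 1.20-fold (AT1G18460; adjusted p = 0.0182) and 9.55-fold (IVD, isovaleryl-CoA dehydrogenase of leucine breakdown; adjusted p = 2.55e-08), and IVD and MCCA, the 2 past 4-fold, carry symbols and so are not members. AT4G33150, a member picked after its values were seen, is the gene with a descriptive name: RefSeq lists it as the lysine-ketoglutarate reductase/saccharopine dehydrogenase, LKR/SDH, the bifunctional enzyme that starts lysine breakdown. It measured 8.56, 8.58 and 8.64 in treated rosettes, against 6.13, 5.61 and 6.03 in untreated rosettes, 6.36-fold higher. Across the 5 lists, 9 of the 64 members had a place, and the others stood in none. These counts stand beside the 0.479% of all genes that are members, and they were not tested.

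**Figure D2:**
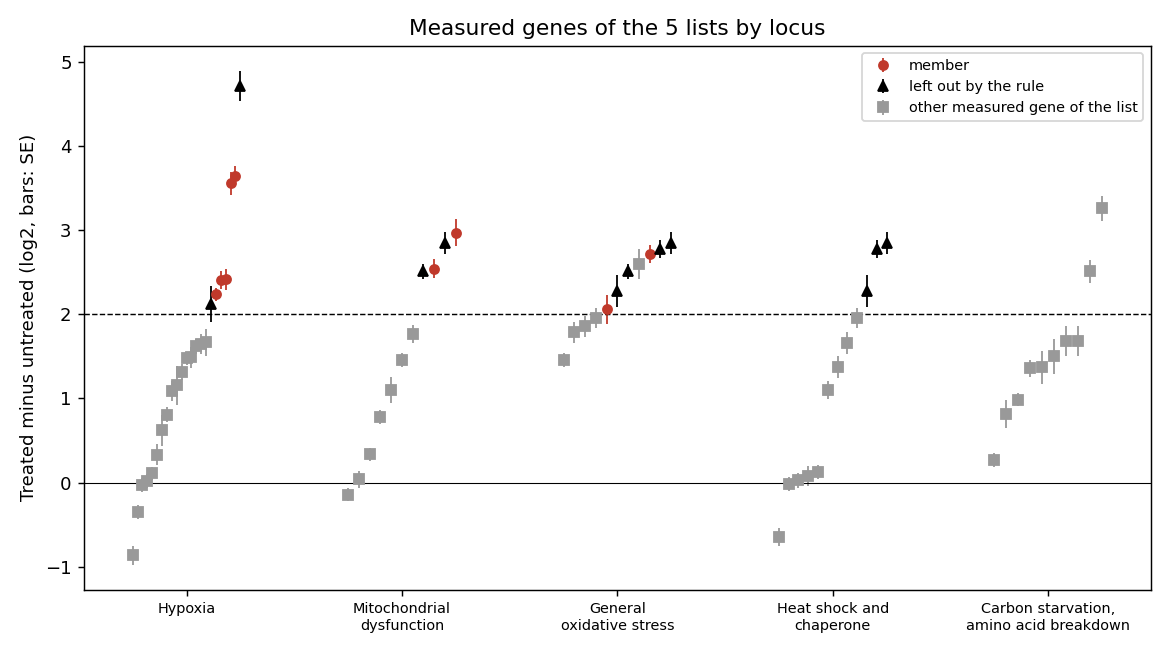
Treated minus untreated difference (log2, vertical axis, bars SE of the limma fit, n = 3 arrays per group) of each measured gene in the 5 lists, with members in red, genes left out by the selection as black triangles and all others as grey squares; the dashed line is the 4-fold limit. Members lie above the dashed line by their selection, and the grey points show how far the rest of each list lay from 0.

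By chromosome the members' shares differed from those of all locus-tag genes, and this was not tested. Chromosome 1 held 24 of them (37.5%, against 26.0% of all locus-tag genes) and chromosome 4 held 15 (23.4%, against 14.4%), while chromosome 3 held 8 (12.5%, against 20.5%), chromosome 5 held 7 (10.9%, against 22.7%) and chromosome 2 held 10 (15.6%, against 16.4%). In the gene order of the RefSeq table, 4 members lay within 5 consecutive protein-coding genes on chromosome 4: AT4G15660, AT4G15680, AT4G15690 and AT4G15700. AT4G15660 had 8.69, 8.72 and 8.35 on treated arrays, against 6.07, 5.96 and 6.13 on untreated arrays (5.80-fold). AT4G15690 had 9.82, 9.65 and 9.79 on treated arrays, against 7.55, 7.17 and 7.75 on untreated arrays (4.81-fold). AT4G15700 had 8.58, 8.61 and 8.54 on treated arrays, against 5.76, 5.58 and 5.68 on untreated arrays (7.47-fold). With AT4G15680 at 12.8-fold, the 4 genes had treated SDs between 0.04 and 0.21.

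The measured genes that flank this stretch differed less. A locus-tag gene at least 4-fold higher with separate arrays would have joined the stretch, so the rule itself limits their size. On one side AT4G15650 stood at log2 0.15 (adjusted p = 0.15, limma) and AT4G15640 fell by 0.35 (adjusted p = 0.00453). On the other AT4G15710 rose 1.29-fold (limma adjusted p = 0.0231). The gene between the members, AT4G15670, was not analysed here because no probe set named it alone. Whether the 4 probe sets also bind transcripts of each other's genes was not tested, so the separate levels within the stretch are uncertain.

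A second pair of members lay side by side on chromosome 1. AT1G72060 measured 8.14, 8.38 and 8.22 in treated rosettes, against 5.28, 5.26 and 5.41 in untreated rosettes (7.61-fold), and AT1G72070 7.16, 7.12 and 7.11 in treated rosettes, against 4.94, 4.89 and 4.69 in untreated rosettes (4.90-fold). The next gene, AT1G72080, stood at log2 0.05 (adjusted p = 0.646). Of 126 genes directly adjacent to members, 5 were members and 58 others were measured. Of these 58, 19 (32.8%) rose and 10 (17.2%) fell (limma, adjusted p under 0.05), against 17.0% and 20.6% of all genes. Their median was 0.08, and 6 (10.3%) were at least 2-fold higher, against 3.45% of all genes. None of the 58 was at least 4-fold higher with separate arrays. A locus-tag gene that met this would be a member unless left out, so this count was largely set by the rule. The remaining adjacent genes were not analysed here.

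**Figure D3:**
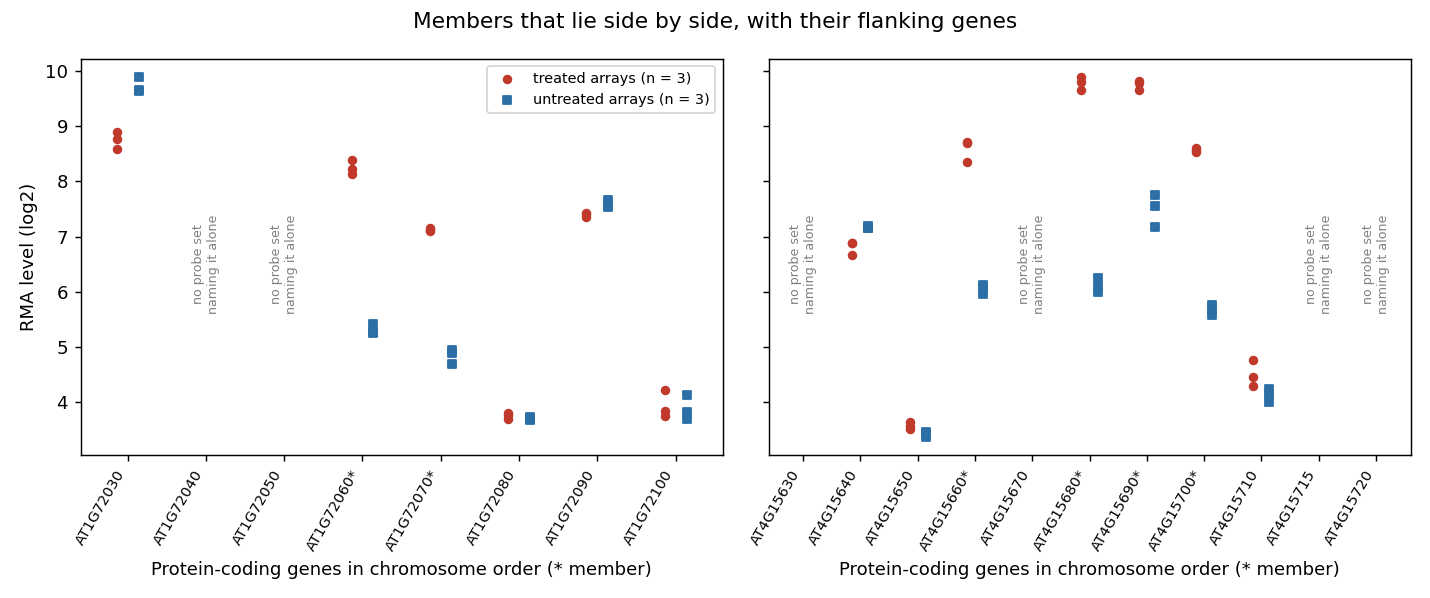
RMA level (log2, vertical axis) on treated arrays (red circles) and untreated arrays (blue squares, to their right) for protein-coding genes in chromosome order around the pair on chromosome 1 (left) and the group of 4 on chromosome 4 (right), where an asterisk marks a member. Red and blue points lie 2.27 to 3.67 apart (log2, group means) at the members and close together or with blue on top at the measured flanking genes. Part of this contrast is set by the selection of members.

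Within the treated group, a subset of members differed between replicates far more than the rest. Treated replicate 1 lay at least 1 (log2) above treated replicate 3 in 6 members, AT2G41640, AT4G29780, AT2G27080, AT3G19680, AT3G04640 and AT2G22880, and in each of them treated replicate 2 lay in between. Among all 13350 genes 16 (0.120%) showed such a distance, and 0 showed it in the opposite direction. AT4G29780 spread most, with 9.27, 8.32 and 6.98 on treated arrays, against 5.90, 5.92 and 6.19 on untreated arrays. Its 4.54-fold difference became 6.90-fold without treated replicate 3 and 3.12-fold without treated replicate 1. AT2G27080 measured 8.77, 8.04 and 7.16 on treated arrays, against 5.71, 6.21 and 5.77 on untreated arrays (4.27-fold), and its difference was 5.69-fold without treated replicate 3 and 3.26-fold without treated replicate 1.

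AT3G19680 measured 11.37, 10.86 and 9.97 on treated arrays, against 8.50, 8.54 and 8.08 on untreated arrays (5.13-fold), and was 6.69-fold higher without treated replicate 3. AT3G04640 measured 9.37, 8.85 and 8.28 on treated arrays, against 6.64, 6.36 and 6.78 on untreated arrays (4.72-fold). AT2G22880 measured 8.00, 7.28 and 6.94 on treated arrays, against 5.12, 5.28 and 5.41 on untreated arrays (4.39-fold). In all 6 the untreated arrays stayed within 0.50 of each other, so the spread was on the treated side. With a distance of at least 0.5 the count was 11 of 64 members (17.2%), which added AT1G25400, AT1G32920, AT1G50040, AT2G44500 and AT3G59350, against 99 of all genes (0.742%). Of the 28 genes with another symbol raised at least 4-fold, EXLA1, EXO and STZ did so, and of the 107 locus-tag genes lowered at least 3-fold, 0 did.

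Treated replicates 1 and 3 were alike in array median (6.22 and 6.22), in the mean of the bacterial poly(A) spikes (6.71 and 6.71), in that of the hybridization controls (9.94 and 9.93) and in the 3′ minus 5′ level of 6 pairs of control probe sets (1.40 and 1.38), a measure of RNA quality. Over all locus-tag genes treated replicate 1 lay above the group mean in 45.6% and treated replicate 3 in 47.5%, whereas among members the shares were 62.5% and 35.9%. A high value on any treated array adds to a member's difference, so the rule itself favours genes with such spread to some degree.

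In the untreated group, the low array was most often replicate 2. It was the lowest of the 3 in 42 members (65.6%, against 31.3% of all locus-tag genes), with a median deviation of -0.14 from the untreated mean, against 0.12 for replicate 1 and 0.06 for replicate 3. It lay at least 0.5 below both others in 11 members (17.2%, against 0.339% of all locus-tag genes), none of them among the 6 with the wide treated spread. AT1G09500, described above, was the furthest of these. AT2G30600 measured 11.54, 11.63 and 11.51 in treated rosettes, against 9.03, 8.03 and 9.19 in untreated rosettes (6.99-fold, or 5.44-fold without untreated replicate 2). AT3G04000 measured 10.23, 10.26 and 10.26 in treated rosettes, against 8.60, 7.33 and 8.24 in untreated rosettes (4.57-fold), and fell short of the limit without that array, at 3.55-fold. The other 8 were AT1G10585, AT1G72900, AT2G41380, AT3G16530, AT3G23550, AT4G21870, AT5G14120 and AT5G57655.

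**Figure D4:**
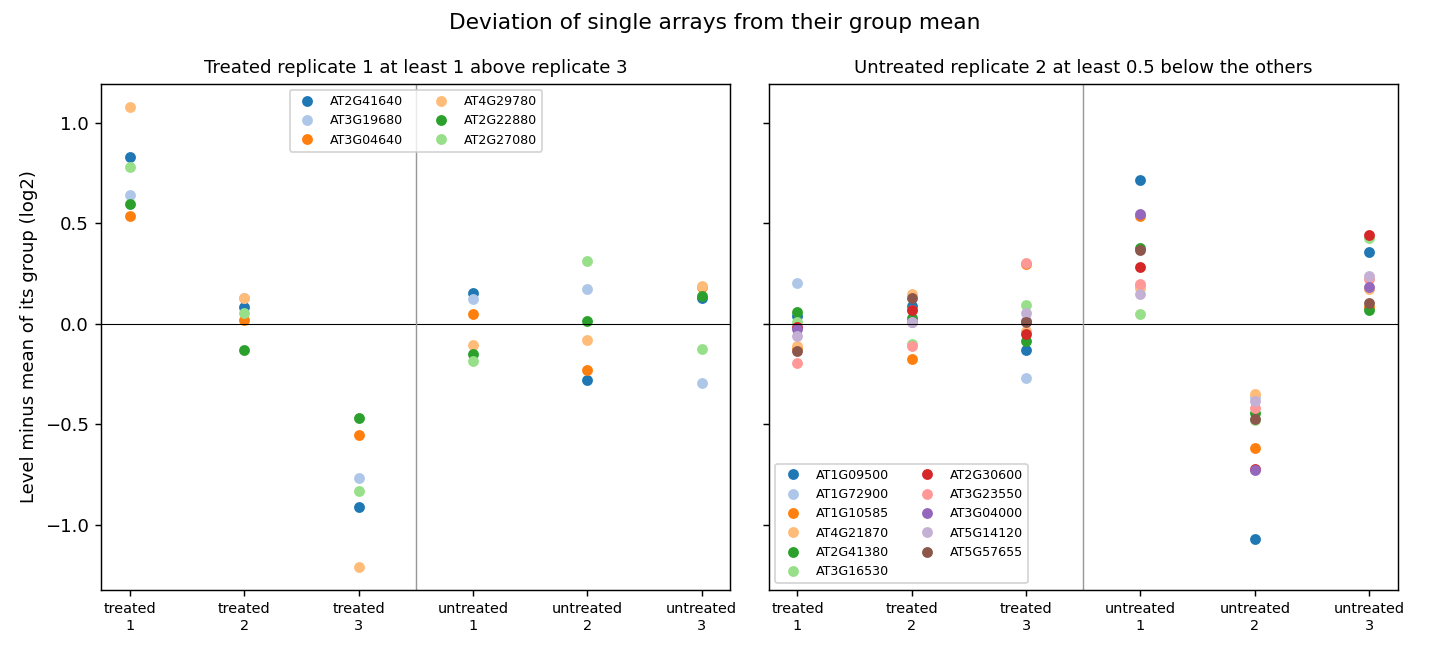
Level of a gene on each array minus the mean of its group (log2, vertical axis) for the 6 members with treated replicate 1 at least 1 above replicate 3 (left) and the 11 members with untreated replicate 2 at least 0.5 below both other untreated arrays (right), treated arrays on the left of each panel. The left genes spread on the treated arrays and lie close together on the untreated ones, and the right genes do the reverse.

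Genes outside the members showed the same low array. Of the 28 genes with another symbol raised at least 4-fold, 18 had their lowest untreated value in replicate 2, 8 of them by at least 0.5, including IVD, MCCA, UGT73B4 and PDF1.2. Of the 107 locus-tag genes lowered at least 3-fold, 89 (83.2%) had untreated replicate 2 above the untreated mean. Raised and lowered genes were both chosen on these untreated values, and an untreated array far from the treated ones enlarges the difference that selects a gene, so part of each share is set by the selection. Its median of 6.25, its poly(A) spike mean of 6.80 and its 3′ minus 5′ level of 1.45 differed little from those of untreated replicate 1 (6.25, 6.75 and 1.43) and replicate 3 (6.27, 6.89 and 1.45). Its hybridization controls were lower, at 9.998, against 10.14 in untreated replicate 1 and 10.20 in untreated replicate 3. Treated replicates 1 and 3 were lower still (9.94 and 9.93), and treated replicate 2 was higher (10.15). The part of these measures in the low values was not tested. Leaving out untreated replicate 2 kept 57 of the 64 members and gave 60 genes by the rule.

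Replicate error differed among the members. The treated SD had a median of 0.17 and ran between 0.02 (AT3G04000) and 1.15 (AT4G29780), and the untreated SD had a median of 0.25 and ran between 0.04 (AT1G66180) and 0.94 (AT1G09500). Over all locus-tag genes the medians were 0.09 treated and 0.10 untreated. The 28 raised genes with another symbol had medians of 0.14 treated and 0.23 untreated, and the 107 lowered locus-tag genes 0.11 and 0.14 in the same groups. The untreated SD was the larger of the 2 in 39 members.

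The untreated level of the members covered nearly the whole range of the array. Their untreated means lay between the 5.61th and the 97.7th percentile of probe sets, with a median at 50.3. AT4G01870 was the brightest, at 13.48, 13.34 and 13.55 on treated arrays, against 11.73, 10.87 and 11.32 on untreated arrays (4.43-fold), followed by AT5G14120 at 12.80, 12.87 and 12.91 treated, against 10.89, 10.36 and 10.98 untreated (4.34-fold). In 15 members the untreated mean lay in the lowest 40% of probe sets, where the fold is most open to background signal. Among these were AT2G41640, AT4G39675, AT4G20860 and AT5G66985, which had some of the largest folds. In treated rosettes no member lay in the lowest 40%, and 42 lay in the upper 20%. The rule asks for a treated mean at least 2 above the untreated mean, so it favours high treated ranks. The 107 lowered locus-tag genes had a higher untreated level, with a median at the 83.0th percentile. A fall of at least 3-fold needs a high enough starting level, so both selections set part of this contrast. The members' own treated levels had their median at the 83.0th percentile too.

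**Figure D5:**
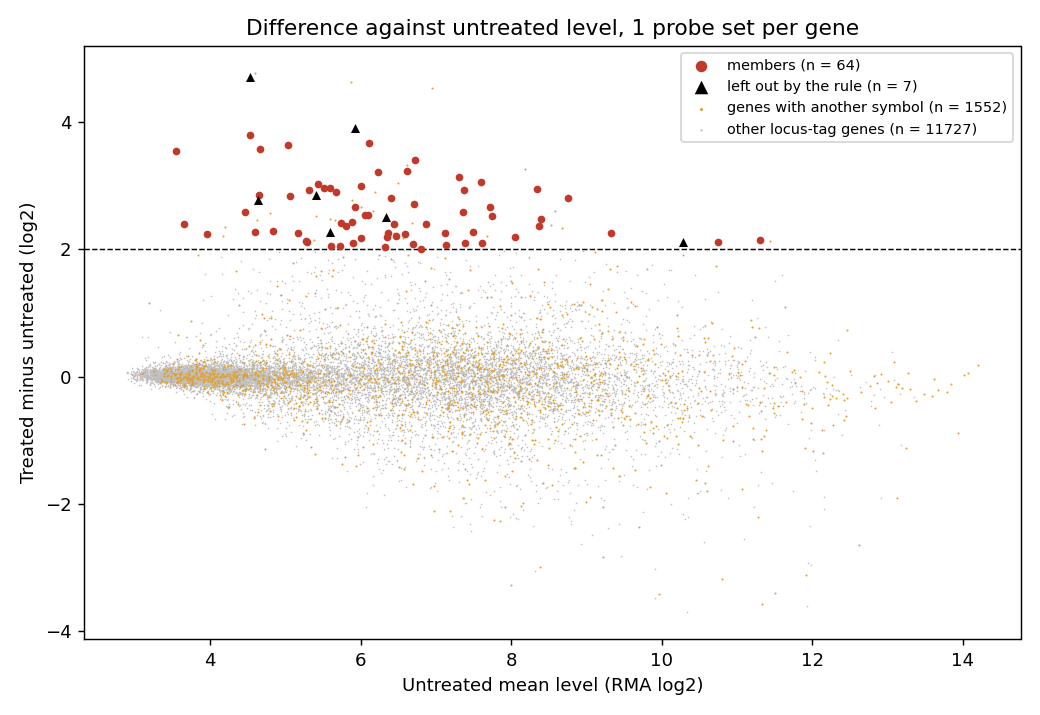
Treated minus untreated difference (log2, vertical axis) against the untreated mean level (RMA log2, horizontal axis), 1 point per gene, for the 64 members (red), the 7 genes left out by the selection (black triangles), 1552 genes with another symbol (orange) and all other locus-tag genes (grey); the dashed line is the 4-fold limit. Members lie at untreated levels between 3.55 and 11.3.

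The limit of 4-fold cut through a continuous series of values. Just inside it stood AT1G54740 with 8.75, 8.96 and 8.68 treated, against 7.22, 6.44 and 6.72 untreated (log2 2.00), AT2G18690 with 8.29, 7.99 and 8.81 treated, against 6.79, 6.37 and 5.83 untreated (log2 2.03), and AT1G75170 at log2 2.05. The probe set of AT1G75170 is marked as sharing probes with other transcripts, so its level is uncertain. It was the only member measured by such a set. Just outside stood AT1G52200 (log2 1.98), AT5G20790 (log2 1.98) and AT1G13990 (log2 1.98), each with separate groups of arrays. No locus-tag gene of at least 4-fold failed for overlap of its arrays.

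Of the 18 members with differences between 2.5 and 3, those not yet given a value were AT5G16960, AT3G16530, AT2G39980, AT4G33420, AT5G39520, AT1G10140, AT1G61890, AT1G43910, AT3G23550 and AT1G32920. They ran between 5.76-fold (AT1G32920) and 7.77-fold (AT5G16960). AT5G39520 spread little in either group, with 7.93, 7.84 and 7.90 treated, against 5.07, 5.11 and 4.99 untreated. AT3G16530, by contrast, spanned 0.90 among its untreated arrays.

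Of the 34 between 2 and 2.5, AT1G66180, AT1G02660, AT5G01740, AT4G38540, AT1G50040, AT3G49210, AT1G76600, AT2G36885, AT3G22750, AT4G17070, AT3G59350, AT1G21520, AT2G44500, AT2G27500, AT5G57655, AT1G23040 and AT1G69760 ran between 4.21-fold (AT1G69760) and 5.54-fold (AT1G66180). AT3G49210 had 6.78, 6.94 and 6.91 treated, against 4.62, 4.52 and 4.67 untreated, with small spread in both groups. AT2G44500 had 7.70, 7.76 and 6.77 treated, against 5.38, 5.17 and 5.31 untreated, with treated replicate 3 well below the other two. A second probe set could be compared for 1 member, AT2G30600, whose sets gave log2 2.80 and 2.66.

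Before the 7 were left out, 71 of 11798 locus-tag genes (0.602%) met the size and separation of the rule, against 28 of 1552 genes with another symbol (1.80%). At least 4-fold lower with separate arrays were 41 locus-tag genes (0.348%), against 18 genes with another symbol (1.16%). The difference between these shares was not tested. The members had a median difference of 2.42, against 2.50 for the raised genes with another symbol.

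Over the whole series, 9479 of 22746 probe sets (41.7%) passed the limma threshold, 19.4% higher and 22.2% lower, and 253 (1.11%) were also at least 4-fold higher. Array medians lay between 6.22 and 6.27. The 9 measured leaf photosynthesis markers had group means between 9.97 and 14.4 in treated and between 12.2 and 14.2 in untreated rosettes, and 6 of the 9 fell. The 4 measured root markers lay between 3.71 and 5.32 in treated and 3.68 and 5.53 in untreated rosettes, and none of the 4 passed the threshold; of the 3 guard cell markers 1 fell. None of the flower, seed or vascular markers was named alone by a listed probe set.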

How the data were processed

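Deposited values were RMA levels on the log2 scale, 1 per probe set and array, which the authors made from Affymetrix ATH1 scans per the submitters' processing notes. They name no version, and which arrays were normalized together is not stated in the labels. RMA levels compress differences between dim probe sets. Groups came from the sample labels. Of 22810 probe sets, 64 controls were set aside, and 22746 were fitted with limma 3.58.1 (R 4.3.3; lmFit and eBayes, treated minus untreated, two-sided, Benjamini-Hochberg, threshold 0.05), after the fit was tested on simulated data. Gene names came from the platform's gene table, updated through RefSeq TAIR10.1 by gene ID for 13436 probe sets. A single gene was named by 13513 probe sets, several by 503, and 8730 were not listed. Array number limits precision, at 3 per group.

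Members and gene lists were chosen with earlier results of these data known. Named in full were the 12 largest members, list members, neighbouring members, the 3 with the widest spread in each group, and the 3 on each side of the limit. AT4G33150, AT4G01870, AT5G14120, AT5G39520, AT3G49210, AT2G44500, the other members of both replicate patterns and the named list genes that are not members were picked after their values were seen. Alternatives covered scaling, dim probe sets, moderation, shared probes, replicate block, thresholds and leaving out arrays. Promoter motifs, protein features and product descriptions were not used here. shr-6 cat2-2 plants were not analysed here.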

Additional observations from a re-analysis of the deposited data

Results flagged for a closer look

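Among the 8730 probe sets that the platform gene table did not list, and which therefore entered no count of genes, 148 (1.70%) were at least 4-fold higher on treated arrays with all treated above all untreated arrays. They were singled out as signal in data that the comparison of genes does not use. The highest of them differed by 5.39 on the log2 scale. These probe sets are unnamed here, so whether any of them measures a gene with only a locus tag was not tested.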

How the results depend on the processing

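The count of 64 members was between 61 and 75 under the replicate block, the 4 scalings and the filters on dim and shared probe sets. With 1 array left out it was between 60 and 71. The replicate block cannot change the count, since the rule uses only group means and separate arrays. The filter on dim probe sets gave 61 because it removes the 3 dim members, and that on shared probe sets removed only AT1G75170. Repeated quantile normalization kept 63 of the 64, and leaving out untreated replicate 2 kept 57. A limit of at least 3-fold gave 139 genes and one of at least 8-fold gave 12. The number of probe sets past the threshold was 9479, against 7436 without moderation, 7342 at an adjusted p of 0.01 and 7975 anchored on hybridization controls, and between 8408 and 8913 with 1 array left out. Those also at least 4-fold higher numbered 253, against 286 anchored on hybridization controls, and between 233 and 274 with 1 array left out. With the replicate number as a block, 9190 probe sets passed and 253 were also at least 4-fold higher. Deviations of same-numbered treated and untreated arrays correlated at 0.07, -0.06 and 8e-04. The labels do not state whether same-numbered samples were paired, and these correlations cannot settle it. Of 956 recomputed member differences, 949 moved by less than 1 SD, 7 moved further, all 7 under anchoring on spikes or hybridization controls, and 0 reversed. Most of these could not have moved that far. The replicate block, moderation and probe set filters leave a difference of means unchanged. Leaving out 1 of 3 arrays shifts a group mean by only a part of that group's SD. The count of 949 therefore bears only on the 4 scalings. Of these, the shift to equal medians and both anchorings move every member difference by the same small amount. Only repeated quantile normalization moves members separately. A reversal by leaving out an array was impossible, since all treated arrays of a member lay above all its untreated arrays. Leaving out single arrays took 16 members under 4-fold, the lowest difference being 1.64 (log2), and left 48 at or above it each time. AT4G29780 was the member whose fold moved by over 1.5 times, to 6.90-fold without treated replicate 3. Promoter motif windows were not run, because no promoter sequences were used here.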
